A study of Mus musculus with 54 samples.

Results

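The sestrins Sesn1, Sesn2 and Sesn3 and the pair Ddit4 and Ddit4l (also called Redd1 and Redd2) encode stress-induced proteins that restrain the growth kinase complex mTORC1. The 5 genes were taken by symbol from the deposited expression matrix of 13611 genes, and all 5 were present in each of its 54 columns. Of the libraries, 40 came from C57B6 mice, with 10 each from thymus, spleen, small intestine and large intestine: 1 untreated library (0 h), 1 for each hour from 1 to 8 h after 10 Gy of ionizing (gamma) radiation, and 1 at 24 h. The remaining 14 came from NIH3T3, an established mouse embryonic fibroblast line kept in culture, with 1 untreated library, 1 for each hour from 1 to 12 h after the same dose, and 1 at 24 h. The labels give neither age, sex nor number of the mice, and they do not say which tissues came from 1 animal.

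As background, mTORC1 drives protein synthesis and growth at the lysosome when amino acids and growth signals are present. Sestrins bind the GATOR2 complex, which lets GATOR1 switch off the Rag GTPases that bring mTORC1 to the lysosome, and Sesn2 is a leucine sensor in this step. Ddit4 acts through the TSC complex, which switches off Rheb, the direct activator of mTORC1. Sesn1 and Sesn2 are known p53 targets, Sesn3 is known as a FoxO target, and Ddit4 responds to DNA damage, low oxygen and glucocorticoids. The title of the series concerns the timing of p53 activity in tissues of different radiation sensitivity, and the questions here are in which organs and at which hours these mTORC1 inhibitors differed from the untreated library.

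The promoters of Sesn2, Ddit4 and Ddit4l are shown because each gene was above its untreated value in all 8 libraries at 1 to 8 h of each tissue. Their courses differed between organs. Each sequence of 300 bases spans the start that RefSeq annotates on GRCm38.p6, with most of it upstream, and is read 5′ to 3′ on the strand of the gene. Capitals mark matches on either strand to the p53 decamer (the consensus unit that p53 binds as a pair), to ATTGG (the CCAAT box read on the other strand), to ACGTG (the core of the hypoxia response element) and to TATAAA. No marked match overlaps another.
Sesn2 chr4:132510407-132510706 (-): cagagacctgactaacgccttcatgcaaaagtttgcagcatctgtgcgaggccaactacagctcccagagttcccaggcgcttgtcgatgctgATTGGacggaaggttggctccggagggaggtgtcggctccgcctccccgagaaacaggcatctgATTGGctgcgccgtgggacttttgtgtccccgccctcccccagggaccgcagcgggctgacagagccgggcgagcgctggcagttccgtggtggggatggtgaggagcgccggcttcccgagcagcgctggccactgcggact
Ddit4 chr10:59951721-59952020 (-): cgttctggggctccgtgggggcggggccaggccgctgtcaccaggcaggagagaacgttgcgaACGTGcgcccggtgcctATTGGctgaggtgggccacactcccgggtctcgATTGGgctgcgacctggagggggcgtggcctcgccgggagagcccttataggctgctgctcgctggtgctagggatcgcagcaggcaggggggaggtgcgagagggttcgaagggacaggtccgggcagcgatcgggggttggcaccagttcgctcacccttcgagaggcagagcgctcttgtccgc
Ddit4l chr3:137623422-137623721 (+): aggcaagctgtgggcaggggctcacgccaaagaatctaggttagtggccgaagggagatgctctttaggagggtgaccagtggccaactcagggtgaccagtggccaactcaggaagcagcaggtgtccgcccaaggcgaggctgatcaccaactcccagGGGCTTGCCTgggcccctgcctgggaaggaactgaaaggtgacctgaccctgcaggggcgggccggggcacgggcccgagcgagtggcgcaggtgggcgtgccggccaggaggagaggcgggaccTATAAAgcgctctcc
The Ddit4l window held 1 match to the p53 decamer, 90 bases upstream of the start, and 1 TATAAA, 35 bases downstream of it. ATTGG occurred 2 times in the Sesn2 window, 157 and 93 bases upstream of the start, and 2 times in the Ddit4 window, 170 and 137 bases upstream. The Ddit4 window also held 1 ACGTG, 187 bases upstream. Of the 32851 RefSeq promoter windows of this length, 8.36% held a p53 decamer, 37.4% held ATTGG, 19.6% held ACGTG and 13.6% held TATAAA. A match is a description of the letters in the window. The windows of Sesn2, Sesn3 and Ddit4 held 0 p53 decamers. Sesn1 has windows at 2 annotated starts, of which the upstream one also held 0. The downstream one, where a decamer lies 173 bases before the start, is shown for comparison with Ddit4l.
Sesn1 chr10:41887189-41887488 (+): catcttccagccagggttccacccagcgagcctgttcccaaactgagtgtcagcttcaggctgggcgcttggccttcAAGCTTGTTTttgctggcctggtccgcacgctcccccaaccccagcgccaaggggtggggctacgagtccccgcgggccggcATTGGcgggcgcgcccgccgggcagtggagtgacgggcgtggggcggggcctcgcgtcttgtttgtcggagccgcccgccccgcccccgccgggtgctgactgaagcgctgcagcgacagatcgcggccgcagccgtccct

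All 5 are protein-coding genes. RefSeq (GRCm38.p6) places Sesn1 on chromosome 10 from 41810574 to 41908436, Sesn2 on chromosome 4 from 132492804 to 132510456 and Sesn3 on chromosome 9 from 14276301 to 14326134. Ddit4 lies on chromosome 10 from 59949675 to 59951770 and Ddit4l on chromosome 3 from 137623672 to 137628332. Expression is given in FPKM, sequenced fragments scaled to transcript length and library size, so levels can be compared between genes. The library preparation kept no strand. In the GENCODE annotation, 9930024M15Rik overlaps the Sesn1 locus and Gm12981 the Sesn2 locus, each with 0 exonic bases in common.

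Sequencing depth was not in the matrix. Values of low genes put the deepest library of a system at 1.93 to 4.29 times the shallowest. Enterocyte markers summed to 72287 to 94617 FPKM in irradiated small intestine at 1 to 8 h, and B cell markers to 2206 FPKM in untreated spleen. T cell markers summed to 1936 FPKM in untreated thymus, and fibroblast markers to 890 to 1229 FPKM in NIH3T3 at 1 to 8 h. In 3 libraries, markers of another organ were high. The 2 h large intestine library had an enterocyte sum of 31809 FPKM, against 459 to 3140 in the other 9. Pancreas markers summed to 52047 FPKM in the 6 h spleen library, and enterocyte markers to 8772 in the 24 h thymus library, against 6.14 to 30.4 in the other thymus libraries. At lower sums, pancreas markers reached 135 FPKM in the 7 h spleen library. Keratinocyte markers stood at 27.6 FPKM in the untreated large intestine library, against 1.19 to 4.84 over 1 to 8 h. Adipocyte markers of thymus were at 478 FPKM untreated and 714 to 2280 over 1 to 8 h. The 1 h large intestine library had the lowest colonocyte sum of that organ, 5435 FPKM against 24264 in the untreated library. Tests that include the 1 h, 2 h or 6 h libraries are given without them where the call changed. The 24 h thymus values rest on that 1 library and cannot be given without it.

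**Figure D1:**
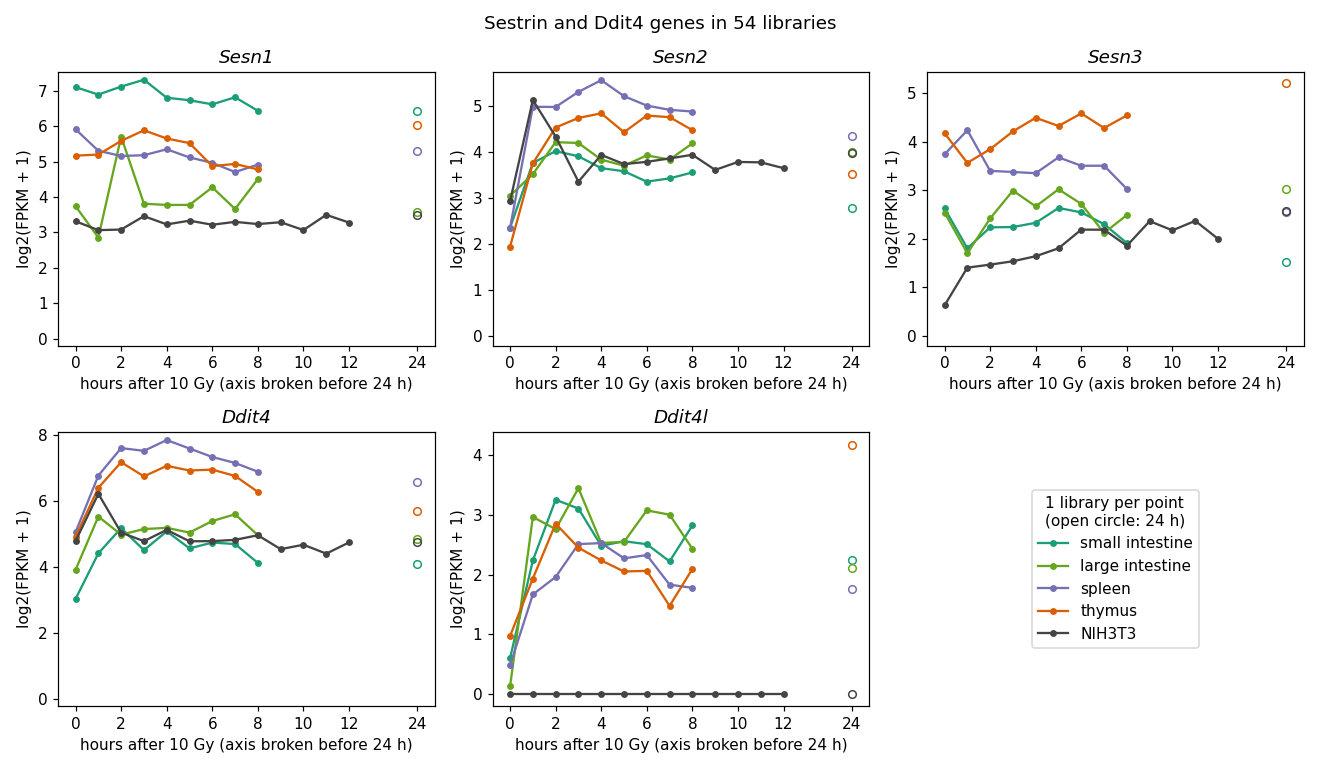
Expression of the 5 genes, log2(FPKM + 1), against hours after 10 Gy in small intestine, large intestine, spleen, thymus and NIH3T3; each point is 1 library, and open circles mark 24 h after a break in the axis. Sesn2 and Ddit4 stand above their 0 h points at every hour in the 4 tissues, Ddit4l stays at 0 in NIH3T3, and Sesn1 has 1 high point at 2 h in large intestine.

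Over the first 8 h, Sesn2, Ddit4 and Ddit4l rose in small intestine, spleen and thymus, Ddit4 and Ddit4l rose in large intestine, and Sesn2 and Sesn3 rose in NIH3T3. In all, 13 of the 24 gene and system combinations that could be tested were called higher and 0 lower. Calls come from limma on log2(FPKM + 1), comparing the mean of the 8 hourly libraries with the single untreated library at an adjusted p under 0.05 (Benjamini-Hochberg over all genes with a mean of at least 1 FPKM in the system). The spread came from libraries of neighbouring hours, so real movement between those hours counts as error and the untreated library is assumed to vary as much. The untested combination was Ddit4l in NIH3T3, listed at 0 in all 14 libraries. Ddit4l in the tissues and Sesn3 in NIH3T3 were below 1 FPKM untreated and reached the mean for testing only through irradiated libraries. The filter thus favoured a call of higher for them, so these calls are weaker evidence than those of the other genes. As background, 8.29% of genes were called higher and 3.93% lower in thymus, 5.03% and 3.66% in spleen, 2.76% and 1.7% in NIH3T3, 1.21% and 0.27% in large intestine, and 0.298% and 0.0176% in small intestine. The median change of all genes lay between -0.02 and 0.02 log2 units in every system.

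Sesn2, a leucine-sensing sestrin, had the largest rise of the sestrins in the lymphoid organs. In spleen it was at 4.11 FPKM untreated, at 28.4 (lowest), 30.9 (median) and 46.1 (highest) over 1 to 8 h, and at 19.3 at 24 h. All 8 early libraries lay above the untreated one, by 2.75 ± 0.24 log2 units (limma estimate ± SE, adjusted p = 5.28e-08). In thymus it went from 2.85 FPKM to 12.5, 23.9 and 27.6 (lowest, median, highest) and stood at 10.5 at 24 h. Again all 8 libraries were higher, by 2.59 ± 0.24 (adjusted p = 1.74e-07). The highest library was that at 4 h in both organs, at 11.2 times the untreated value in spleen and 9.68 times in thymus. In thymus the 6 h and 7 h libraries were close to it, at 9.35 and 9.12 times.

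In the intestines the Sesn2 rise was smaller. Small intestine went from 4.13 FPKM to 9.24, 11.3 and 15.2 (lowest, median, highest), with its peak at 2 h, and was at 5.91 at 24 h. The change was 1.30 ± 0.24 (limma adjusted p = 0.0113), and it lost its call after quantile normalization (1.08, adjusted p = 0.0915). Large intestine went from 7.30 FPKM to 10.5, 13.7 and 17.6, so that all 8 early libraries were higher, but the change of 0.87 ± 0.24 was not called (limma adjusted p = 0.0657). It passed without the 1 h and 2 h libraries (0.89, adjusted p = 0.0215), and without the 3 libraries that hold transcripts of another organ (0.83, adjusted p = 0.0352).

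NIH3T3 cells had a different Sesn2 course. The value was 6.62 FPKM untreated, 34.0 at 1 h, 19.2 at 2 h and 9.24 at 3 h, and 11.2 to 14.7 in the 10 later libraries. The 1 h library is thus the peak, at 5.13 times the untreated value, and all later values lay above the untreated one. Over 1 to 8 h the change was 1.08 ± 0.22 (limma adjusted p = 0.0232). It was not called with no filter on low genes (adjusted p = 0.0674) or with other borders of the hour windows (adjusted p = 0.1).

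Ddit4, which acts through the TSC complex, rose in every tissue from a level above that of Sesn2. Spleen had 32.1 FPKM untreated, 107 (lowest), 170.0 (median) and 227 (highest) over 1 to 8 h, and 92.9 at 24 h, a change of 2.28 ± 0.33 (limma adjusted p = 8.79e-05). Thymus had 29.1 FPKM untreated, 76.0, 113 and 142 over 1 to 8 h, and 50.2 at 24 h, a change of 1.87 ± 0.33 (limma adjusted p = 0.000614). In both organs no early library overlapped the untreated level.

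The intestines also had all 8 early Ddit4 libraries above the untreated one. Small intestine went from 7.18 FPKM to 16.4, 23.7 and 35.1 (lowest, median, highest), a change of 1.63 ± 0.33 (limma adjusted p = 0.0242). Large intestine went from 14.1 FPKM to 30.1, 34.8 and 47.2, a change of 1.31 ± 0.33 (limma adjusted p = 0.0456). These calls were close to the threshold. Fitted without the other organs, neither was called (adjusted p = 0.154 in small and 0.204 in large intestine), nor after quantile normalization (0.284 and 0.127). The large intestine call was also lost without any 1 of 5 libraries, those at 3, 4, 5, 6 and 7 h (adjusted p from 0.0501 to 0.0655).

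In NIH3T3 a Ddit4 peak stood in 1 library. The value was 26.5 FPKM untreated, 73.0 at 1 h and 31.8 at 2 h, and then 20.1 to 33.8 in the 11 later libraries. The 1 h library was at 2.75 times the untreated value and the rest were around it. Averaged over 1 to 8 h, the change was 0.28 ± 0.27 (limma adjusted p = 0.559).

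Ddit4l, the paralogue of Ddit4, was below 1 FPKM in untreated tissue and listed at 0 in every fibroblast library. In large intestine it was at 0.0911 FPKM untreated and at 4.39, 6.29 and 9.89 (lowest, median, highest) over 1 to 8 h, a change of 2.72 ± 0.38 on the log2(FPKM + 1) scale (limma adjusted p = 0.000176). That scale compresses the change of a gene this low. With a pseudocount of 0.1 the estimate was 5.03, against 3.12 in small intestine and 2.78 in spleen. The untreated large intestine value was near the floor, below that pseudocount, and came from 1 library, so the size of this change is uncertain. Small intestine went from 0.516 FPKM to 3.66, 4.79 and 8.53, a change of 2.05 ± 0.38 (limma adjusted p = 0.0113). Both intestinal calls were lost when each tissue was fitted alone (adjusted p = 0.0711 in large and 0.11 in small intestine).

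Lymphoid organs had lower Ddit4l values over 1 to 8 h. Spleen went from 0.394 FPKM to 2.17, 3.36 and 4.76 (lowest, median, highest), a change of 1.63 ± 0.38 (limma adjusted p = 0.00717). Thymus went from 0.959 FPKM to 1.78, 3.22 and 6.22, a change of 1.17 ± 0.38 (limma adjusted p = 0.0424). All 8 early libraries of each organ were above the untreated one. The thymus call was lost after quantile normalization (adjusted p = 0.0521), in a fit of thymus alone (0.0632) and without any 1 of the 3, 4, 6 and 8 h libraries (0.0519 to 0.0564).

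Sesn1, the other sestrin known as a p53 target, was called in no system over 1 to 8 h in the joint tissue fit or the NIH3T3 fit. The tissues share 1 estimate of the spread in the joint fit, so the SE of each includes the spread of large intestine. The SD of Sesn1 within windows of hours was 0.94 log2 units in large intestine, 0.24 in small intestine, 0.18 in thymus and 0.12 in spleen. Small intestine held the highest level, 137 FPKM untreated and 85.7 (lowest), 111 (median) and 158 (highest) after irradiation, a change of -0.26 ± 0.49 (limma adjusted p = 1). In spleen it was 59.4 FPKM untreated and 25.1, 34.3 and 39.8 over 1 to 8 h. All 8 spleen libraries were below the untreated one, at -0.83 ± 0.49 (limma adjusted p = 0.329). In a fit of spleen alone the adjusted p was 0.0232, without the 1 h and 2 h large intestine libraries it was 0.018, and without the 2 h large intestine, 6 h spleen and 24 h thymus libraries 0.0265.

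In thymus Sesn1 went up and down within the first 8 h. It was at 35.0 FPKM untreated, 35.8 at 1 h, 47.1 at 2 h, 58.2 at 3 h, 49.4 at 4 h, 45.0 at 5 h, 28.3 at 6 h, 29.6 at 7 h and 26.5 at 8 h. The 3 late libraries lay below all 5 early ones, a difference of -0.71 ± 0.34 (limma adjusted p = 0.116). With the 2 h large intestine, 6 h spleen and 24 h thymus libraries left out, the estimate was the same with an SE of 0.16 (adjusted p = 0.00112), and in a fit of thymus alone the SE was 0.12 (adjusted p = 0.0038). Over the same hours the T cell marker sum of thymus went from 1368 to 1752 FPKM at 1 to 5 h to 861 to 993 FPKM at 6 to 8 h. In bulk tissue, fewer cells of a type and less RNA per cell cannot be told apart, and the part of this shift in the result was not tested.

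In large intestine the mean of Sesn1 was set by 1 library. The untreated value was 12.4 FPKM, the 2 h library had 51.2, and the other 7 early libraries had 6.24 to 21.8, with a mean of 13.8 ± 4.98 FPKM (SD, n = 7). The 2 h library is the one with the high enterocyte sum, and small intestine held 138 FPKM of Sesn1 at that hour. In NIH3T3 Sesn1 stayed between 7.37 and 10.3 FPKM in all 14 libraries, with a change of -0.08 ± 0.14 (limma adjusted p = 0.781).

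Sesn3, known as a FoxO target, rose in the fibroblasts over 1 to 8 h and was called in no tissue. In NIH3T3 it was at 0.546 FPKM untreated, 1.65 at 1 h, 1.77 at 2 h, 1.90 at 3 h, 2.12 at 4 h and 2.49 at 5 h. It then stood at 2.62 to 3.56 FPKM over 6 to 8 h, reached 4.17 at 11 h and was at 4.96 at 24 h. All 13 irradiated libraries were above the untreated one, and the change over 1 to 8 h was 1.13 ± 0.18 (limma adjusted p = 0.011), or 1.93 with a pseudocount of 0.1. Among tissues the medians over 1 to 8 h were 18.7 FPKM in thymus, 9.94 in spleen, 4.98 in large and 3.83 in small intestine, against 17.0, 12.3, 4.81 and 5.18 untreated. The tissue changes lay between -0.38 and 0.06 log2 units.

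**Figure D2:**
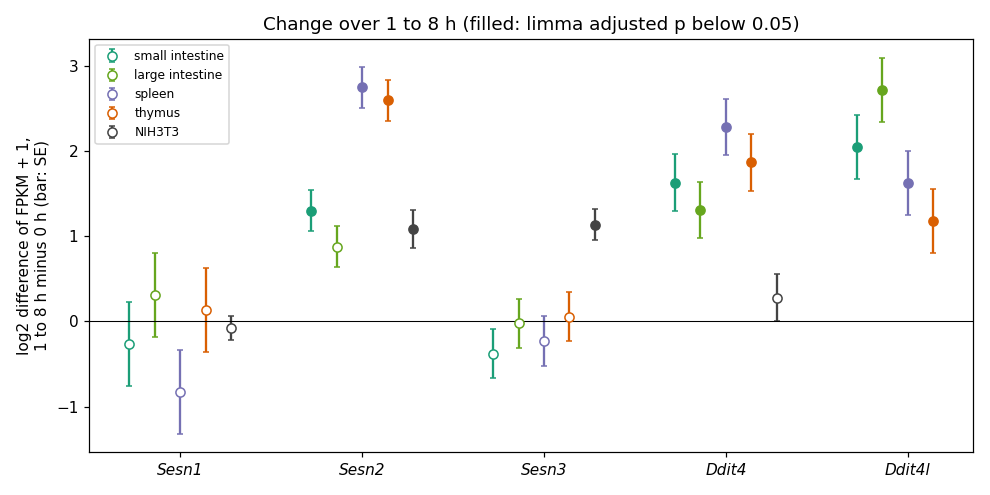
Change of each gene over 1 to 8 h against the untreated library, as the limma log2 difference of FPKM + 1 with its SE, for each tissue and NIH3T3; filled points passed an adjusted p of 0.05. Sesn2 lies at 2.75 in spleen and 2.59 in thymus and at 1.30 or below elsewhere, Ddit4l is highest in large intestine at 2.72, and no Sesn1 point is filled.

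The difference between organs was tested on the change itself. For Sesn2 the mean change of spleen and thymus exceeded that of the intestines by 1.58 ± 0.24 log2 units (limma adjusted p = 0.00118). The same contrast called 3.02% of genes. Ddit4 differed by 0.60 ± 0.33 (adjusted p = 0.354), Sesn1 by -0.37 ± 0.49 (0.759) and Sesn3 by 0.11 ± 0.29 (0.89), none of them called. Ddit4l went the other way, at -0.98 ± 0.37 (limma adjusted p = 0.155). It passed with a pseudocount of 0.1 (-1.83, adjusted p = 0.0278) and after quantile normalization (-1.19, adjusted p = 0.0479). At that pseudocount the Ddit4l estimate rests in part on the single untreated large intestine value of 0.0911 FPKM, near the floor. No member was called between spleen and thymus, where 0.385% of genes were, or between small and large intestine, where 0.137% were. The B cell marker sum of spleen moved over the same hours, from 2206 FPKM untreated to 1710 at 1 h and 317 at 8 h, and its part in the result was not tested.

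Levels after irradiation ranked the tissues in the same order for Sesn2 and Ddit4 and in other orders for Sesn1, Sesn3 and Ddit4l. The limma contrasts of means over 1 to 8 h called 71.7% of genes between small and large intestine, 86.4% between small intestine and spleen and 87% between small intestine and thymus. They called 82.8% between large intestine and spleen, 83% between large intestine and thymus and 66.6% between spleen and thymus, so a called pair is the common case. Sesn2 was highest in spleen, then thymus, large intestine and small intestine. The last pair differed by -0.27 ± 0.11 (adjusted p = 0.0374), a call lost without the 3 libraries with transcripts of another organ (adjusted p = 0.0624), with other window borders (0.0653) and without any 1 of 7 intestinal libraries (0.0561 to 0.0942), those at 5 to 8 h in small and at 2, 3 and 8 h in large intestine. Ddit4 had the same order, with each neighbouring pair called. Its spleen and thymus difference of 0.55 ± 0.16 was not called after quantile normalization (adjusted p = 0.069).

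Sesn1 was highest in small intestine, 1.54 ± 0.23 log2 units above thymus, 1.76 ± 0.23 above spleen and 2.80 ± 0.23 above large intestine. After quantile normalization it was 0.52 above thymus and 0.90 above spleen, both called, so the size of these differences depended on the scaling. All genes summed to 866950 to 1010521 FPKM in small intestine libraries, 296891 to 447373 in thymus and 395216 to 566863 in spleen. Thymus and spleen were 0.22 apart, which was not called (limma adjusted p = 0.425). The SE of this joint fit includes the wider spread of Sesn1 in large intestine, so it is not the spread of these organs alone. Sesn3 was highest in thymus, then spleen. The intestines were lowest, with a difference between them of -0.27 ± 0.14 that was not called (adjusted p = 0.0861), but was without the 1 h and 2 h large intestine libraries (-0.42, adjusted p = 0.00981). Ddit4l ranked both intestines above both lymphoid organs, with small intestine 0.50 ± 0.18 above thymus (0.81 after quantile normalization). Neither the intestines (adjusted p = 0.328) nor spleen and thymus (adjusted p = 0.874) differed within their pair.

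The mean share of Sesn2 among the sestrin transcripts was higher over 1 to 8 h than untreated in every tissue. In spleen the 3 sestrins summed to 75.8 FPKM untreated and 77.9 ± 10.8 (SD, n = 8) over 1 to 8 h. Within this sum Sesn2 went from 5.43% to 43.4 ± 4.02% and stood at 31.0% at 24 h, while Sesn1 went from 78.3% to 42.8 ± 2.40%. Thymus went from 5.20% to 28.2 ± 4.84% Sesn2, with a sum of 54.9 FPKM untreated and 81.0 ± 14.1 over 1 to 8 h. Small intestine remained mostly Sesn1, at 93.6% untreated and 88.0 ± 1.21% over 1 to 8 h, with Sesn2 going from 2.83% to 9.02 ± 1.01%. Large intestine had the highest untreated Sesn2 share of the 4 tissues, 29.8%, and 41.2 ± 9.12% over 1 to 8 h. Its 2 h library, the one with the high enterocyte sum, had 24.02%, below the untreated share, and the other 7 had 43.6 ± 6.41%. In NIH3T3 the Sesn3 share was 3.39% untreated, 9.56 ± 3.53% over 1 to 8 h and 16.6% at 24 h. These shares are a description and were not tested.

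**Figure D3:**
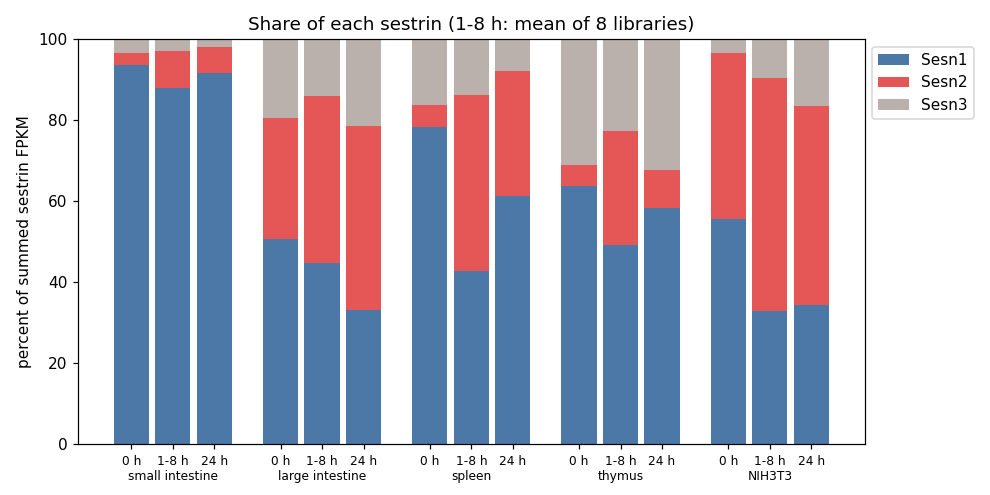
Share of Sesn1, Sesn2 and Sesn3 in the summed sestrin FPKM (percent) at 0 h, over 1 to 8 h (mean of 8 libraries) and at 24 h in each tissue and in NIH3T3. The Sesn2 share goes from 5.43% to 43.4% in spleen and from 2.83% to 9.02% in small intestine.

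Within the first 8 h, the level at 6 to 8 h was compared with that at 1 to 5 h. No member was called in any system in the joint tissue fit or the NIH3T3 fit. Among alternatives, a separate fit called Sesn1 in spleen (-0.36, limma adjusted p = 0.0415) and thymus, as given above, and Sesn3 in thymus (0.38, adjusted p = 0.0368). Quantile normalization called Sesn1 in thymus (-0.92, adjusted p = 0.0199). In the joint tissue fit and the NIH3T3 fit, the 6 to 8 h contrast called 32.1% of genes in thymus, 27.8% in spleen, 2.3% in NIH3T3, 0.518% in small and 0.498% in large intestine. The estimates of Sesn2 were -0.27 ± 0.16 in spleen, 0.22 ± 0.17 in thymus, -0.34 ± 0.17 in small and 0.09 ± 0.17 in large intestine. Those of Ddit4 were -0.34 ± 0.23, -0.20 ± 0.23, -0.23 ± 0.23 and 0.14 ± 0.23 in the same order. Sesn3 in NIH3T3 stood at 0.51 ± 0.12 (limma adjusted p = 0.0507), and was called without the 5 h library (adjusted p = 0.0338) or the 12 h library (0.0447). Over the same hours the myeloid marker sum of spleen was 3366 to 4257 FPKM at 1 to 5 h and 12751 to 16824 at 6 to 8 h.

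At 24 h each system was compared with its untreated library, and the organs were not compared with each other. Ddit4 stood at 2.24 times the untreated value in small intestine, 1.95 times in large intestine and 1.73 times in thymus, and was called in none of them. Among the tissues, members were called in spleen and thymus and none in the intestines. This contrast sets 1 library against 1 and rests on the spread of the other hours. It called 45% of genes in thymus, 20.8% in spleen, 11% in NIH3T3, 0.253% in large and 0.184% in small intestine. Spleen had Sesn2 higher by 1.99 ± 0.32 (limma adjusted p = 0.000134) and Ddit4 at 92.9 against 32.1 FPKM, 2.89 times the untreated value (limma adjusted p = 0.018). Spleen Sesn3 was lower, at 4.88 against 12.3 FPKM (-1.18 ± 0.39, limma adjusted p = 0.0324), a call lost in a fit of spleen alone (0.08), when the windows had other borders (0.0722) and at a pseudocount of 0.1 (0.0518). The B cell marker sum of that library was 289 FPKM against 2206 untreated, and its part in these values was not tested.

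The 24 h thymus library held the highest Ddit4l value of all 54 libraries, 17.1 FPKM against 0.959 untreated (3.21 ± 0.50, limma adjusted p = 1.9e-05). The library had the enterocyte sum of 8772 FPKM given above and a T cell sum of 338 FPKM against 1936 untreated, and the part of either in its values was not tested. Sesn2 was higher there by 1.58 ± 0.32 (adjusted p = 0.00036) and Sesn3 by 1.03 ± 0.39 (adjusted p = 0.0331). The Sesn3 call was lost when the windows had other borders (0.0668) or the pseudocount was 0.1 (0.064). Sesn1 was at 64.9 FPKM against 35.0 untreated, not called in the joint fit (0.87 ± 0.66, limma adjusted p = 0.293) and called in a fit of thymus alone (adjusted p = 0.0158) and without the 1 h and 2 h large intestine libraries (0.0184). The median of all genes moved by 0.15 log2 units in that comparison. In the intestines, Sesn2 was at 5.91 FPKM in small and 14.99 in large intestine at 24 h, and Ddit4 at 16.1 and 27.4, with no call (limma adjusted p from 0.342 to 0.91). Ddit4l was at 3.72 FPKM in small and 3.33 in large intestine, against 0.516 and 0.0911 untreated, and was not called either (adjusted p = 0.373 and 0.11). In large intestine it passed with a pseudocount of 0.1 (adjusted p = 0.000636).

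For NIH3T3 the later hours were also sampled. Sesn3 was higher at 9 to 12 h than at 1 to 5 h by 0.65 ± 0.11 (limma adjusted p = 0.00345), and at 24 h than untreated by 1.95 ± 0.24 (adjusted p = 0.00054), or 2.97 with a pseudocount of 0.1. Ddit4 was lower at 9 to 12 h than at 1 to 5 h by -0.60 ± 0.17 (adjusted p = 0.0347), a call lost with no filter on low genes (0.118), with other window borders (0.112) and without any 1 of the 9, 10, 11 and 12 h libraries (0.0556 to 0.0822). Without the 1 h library, which held the peak, it was -0.34 (limma adjusted p = 0.0428). The 9 to 12 h contrast called 13.6% of genes. Sesn2 was higher at 24 h than untreated by 1.04 ± 0.30 (adjusted p = 0.0405), and this call was lost with no filter on low genes (0.103), after quantile normalization (0.0619), with other window borders (0.188) and without any 1 of the 5, 6, 7 and 10 h libraries (0.0507 to 0.0525). A rhythm with a 5 h period, fitted over 1 to 12 h because the series is about p53 timing, was called by limma in 0 of 10385 genes, 0%, with 328 genes at an unadjusted p under 0.05. The fitted amplitude of Sesn2 was 0.20 log2 units (adjusted p = 0.999).

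Genes whose course over the 54 libraries was most like each member were ranked by Pearson's r of log2(FPKM + 1), after the mean of each system was subtracted, among 9024 genes. Points within a system share its untreated library and its time course, so r is a description. Sesn2 was most like Bbc3 (r = 0.91), the p53 target that encodes the cell death protein PUMA, Fam212b (0.89) and Mdm2 (0.88), the ubiquitin ligase that removes p53. Ddit4 was most like Aen (0.86), a p53-induced nuclease, Fam212b (0.86) and Sesn2 itself (0.85). Ddit4l was most like Eda2r (0.82), a p53-induced death receptor, Tmem127 (0.73) and Ccng1 (0.72). For Sesn1 they were Crot (0.77), Rhebl1 (0.71) and Casp6 (0.71), and for Sesn3 Vps13b (0.62), Gbf1 (0.60) and Lrba (0.60). Between members, r was 0.50 for Sesn2 with Ddit4l, 0.57 for Ddit4 with Ddit4l and -0.05 for Sesn2 with Sesn1.

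The rest of the mTORC1 pathway was called in few places over 1 to 8 h. Of all genes, 5.03% were called higher and 3.66% lower in spleen, 8.29% and 3.93% in thymus, and 2.76% and 1.7% in NIH3T3. Single calls in the pathway lists are read against these shares. None of the 5 GATOR2 genes, the complex that sestrins bind, and none of the AMPK subunits, Stk11 (the AMPK kinase) or its partners Strada and Cab39 was called in any system. No GATOR1 or KICSTOR gene was called in any of the 4 tissues. Of 8 Rag and Ragulator genes, Rragc rose in spleen by 0.50 ± 0.15 (limma adjusted p = 0.0331) and Lamtor4 fell in NIH3T3, at -0.51 ± 0.11 (adjusted p = 0.0295). Of 4 TSC and Rheb genes, Rheb rose in thymus by 0.42 ± 0.14 (adjusted p = 0.0441). Among 9 genes of the mTOR complexes, Prr5, a part of mTORC2, fell in spleen, at -1.07 ± 0.29 (limma adjusted p = 0.0208). The list medians lay close to the median of all genes, between -0.18 and -0.01 for GATOR2 and between -0.17 and 0.04 for AMPK.

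Among 9 effectors below mTORC1, the autophagy kinase Ulk1 rose in spleen by 0.85 ± 0.21 (limma adjusted p = 0.0141) and in NIH3T3 by 0.87 ± 0.17 (0.0172). Eif4ebp1, a translation repressor that mTORC1 inactivates, rose in thymus by 1.37 ± 0.34 (adjusted p = 0.0097), and Eif4ebp2 rose in NIH3T3 by 0.64 ± 0.15 (0.0341). No effector was called in the intestines. Of 7 other genes known to link p53 to restraint of AKT or mTOR, Phlda3, which blocks AKT at the membrane, and Plk2 rose in all 4 tissues. Phlda3 rose by 3.30 ± 0.33 in small intestine and 3.95 ± 0.33 in spleen, and Plk2 by 4.49 ± 0.30 in thymus. Igfbp3 rose in thymus by 1.39 ± 0.32.

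**Figure D4:**
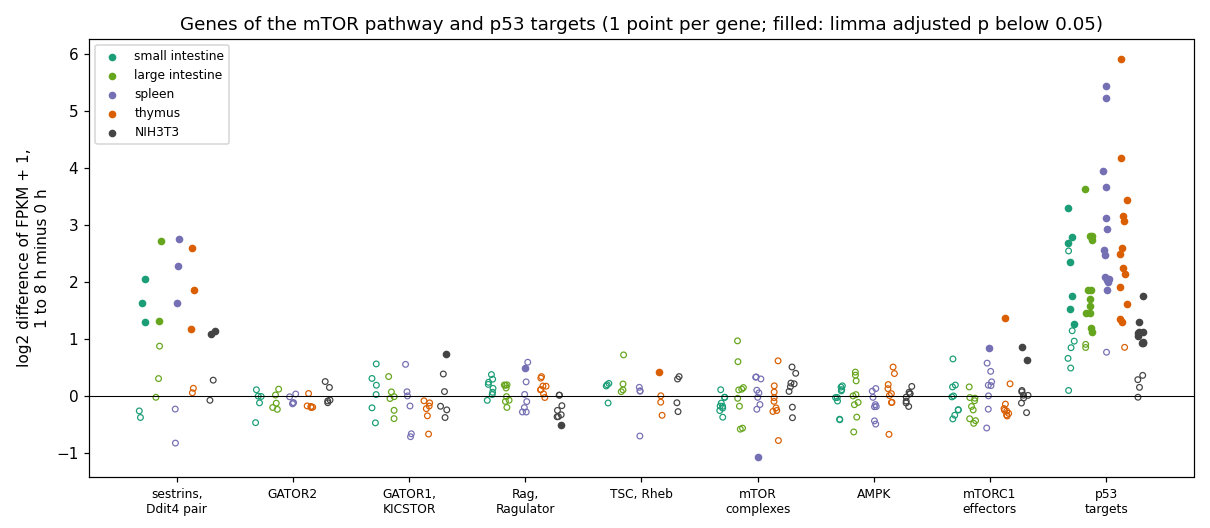
Change over 1 to 8 h (limma log2 difference of FPKM + 1) of each gene in lists of the mTORC1 pathway and of p53 targets, coloured by tissue or NIH3T3; filled points passed an adjusted p of 0.05. The GATOR2 and AMPK columns hold no filled point, and the p53 targets reach 5.92 for Gdf15 in thymus.

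Lists for other inputs known to induce the members were read in the same contrast. Of 14 p53 targets (members left out), 13 rose in thymus, 13 in spleen, 12 in large and 7 in small intestine, as did 9 of 13 in NIH3T3. Their medians were 2.37, 2.52, 1.64, 1.40 and 0.95 log2 units. Of 13 glucocorticoid-induced genes, 9 rose in thymus, where Mt2 led with 3.79 ± 0.81, 3 rose in spleen, and Tsc22d3 alone rose in large intestine (1.27 ± 0.33). Small intestine had 0 called and a median of 1.13. None of the 11 tested in NIH3T3 was called (median -0.02). Of 12 genes of the low-oxygen response, Adm rose in spleen by 1.52 ± 0.44 and in thymus by 2.38 ± 0.44, P4ha1 and Vegfa also rose in thymus, and Pdk1 fell in both. The intestines and NIH3T3 had 0 called in this list.

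Of the 11 genes of the ATF4 response list, Slc7a11, the cystine carrier, rose in spleen by 1.16 ± 0.22. Atf3 rose in thymus by 4.06 ± 0.68, and 0 were called in the intestines and NIH3T3. Of 9 FoxO-linked genes, Foxo3 itself rose in spleen by 1.13 ± 0.27, in thymus by 0.83 ± 0.27 and in NIH3T3 by 0.88 ± 0.23. Ccng2 rose in large intestine by 1.15 ± 0.20 and fell in spleen, at -0.90 ± 0.20, where S1pr1 fell too, at -1.30 ± 0.33. Of 10 redox genes linked to sestrins, Txnrd1 and Nfe2l2 rose in spleen, by 1.18 ± 0.22 and 0.74 ± 0.20. In thymus Hmox1, Srxn1, Nfe2l2 and Sqstm1 rose, Hmox1 by 3.43 ± 0.56 and Srxn1 by 2.14 ± 0.35. In NIH3T3 the mitochondrial peroxidase Prdx3 fell, at -0.31 ± 0.08. These lists were chosen with results of the data known, and their counts are read against the background shares of each system given above.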

How the data were processed

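RNA in RNAlater-preserved tissue or cultured cells was polyA-selected and sequenced without strand information, per the labels' protocols. Reads were processed with TopHat2 2.1.0 and Cufflinks 2.1.1 on mm10, per the submitters' processing notes. The authors deposited 1 matrix of 13611 genes in 54 libraries. Its unit was read as FPKM from the tools named and the values, and read counts and library totals were not used here.

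FPKM values were used as deposited and analysed as log2(FPKM + 1), with trended variance and two-sided tests in limma 3.58.1 (R 4.3.3). The 40 tissue libraries shared 1 fit (20 residual degrees of freedom), and the 14 NIH3T3 libraries had their own (8). Each hour has 1 library, so libraries at 1 to 2, 3 to 5, 6 to 8 and 9 to 12 h stood in for replicates of a window. A p-value thus reflects variation among libraries of neighbouring hours, whether technical or with time. Genes with a mean of at least 1 FPKM in the system were tested, with Benjamini-Hochberg adjustment over all of them and a threshold of 0.05. That mean included the irradiated libraries, so a gene low in the untreated library could pass through its irradiated values alone. The procedure was also run on simulated data, in which every library varied independently around 1 mean per system, apart from genes raised on purpose. Those data held no further time course and no untreated library set apart, so the run cannot check the assumptions made here about them. Promoter sequences came from RefSeq (GRCm38.p6), where all 5 members and 13027 of the 13611 symbols matched.

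Alternatives changed the pseudocount, filter, scaling, fit, window borders, an hour block and the libraries used. All 5 members are named. Of most lists, but not all, counts and the called genes with the highest and lowest change are given, with further called genes named after their values were seen. The result for 1 listed gene is not reported here. The members and lists were chosen with earlier results of these data known.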

Additional observations from a re-analysis of the deposited data

Results flagged for a closer look

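The rise of Sesn2 over 1 to 8 h differed between organs: it was larger in spleen and thymus than in the intestines by 1.58 ± 0.24 log2 units (limma contrast of the changes, adjusted p = 0.00118). The changes themselves were 2.75 in spleen, 2.59 in thymus, 1.30 in small intestine and 0.87 in large intestine, and Sesn2 was higher than untreated in all 8 early libraries of each of the 4 tissues.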

How the results depend on the processing

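The 125 values given for the members were recomputed 870 times under other settings, of which 816 kept their direction and side of the threshold, and 1520 times with 1 library left out, of which 1464 did. The rise of Sesn2 in spleen and thymus, that of Ddit4 in both, and the larger Sesn2 change in the lymphoid organs were called under every setting run. All comparisons with 0 h rest on 1 untreated library per system, which could not be left out, and depth per library was not known.

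Quantile normalization ended the calls over 1 to 8 h of Sesn2 (1.08) and Ddit4 (1.34) in small intestine, Ddit4 in large intestine (1.20) and Ddit4l in thymus (1.01). A separate fit per tissue, with fewer libraries, ended those of Ddit4 (1.63) and Ddit4l (2.05) in small intestine, Ddit4 (1.31) and Ddit4l (2.72) in large intestine and Ddit4l in thymus (1.17), and called Sesn1 in spleen (-0.83). Other window borders or no filter ended Ddit4 in large intestine (1.31) and Sesn2 in NIH3T3 (1.08). Sesn2 in large intestine was called without the 3 libraries with transcripts of another organ (0.83), as Sesn1 in spleen was (-0.81), and without the 1 h and 2 h large intestine libraries (0.89), a choice made after seeing the data. That choice also called Sesn1 in spleen (-0.83) and turned Sesn3 in large intestine to 0.13. The organ difference of Ddit4l was called with a pseudocount of 0.1 (-1.83) and after quantile normalization (-1.19). The cause of these changes was not tested.

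The libraries of 1 hour share a number and not a stated animal. With the hour as a replicate block, Sesn2 in large intestine was called (0.87), as was Ddit4l at 24 h in large intestine (1.99) and spleen (1.27), and the genes called over 1 to 8 h were 48, 179, 1082 and 1566 in small and large intestine, spleen and thymus.

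Without the block, 36, 175, 1024 and 1518 genes were called in these tissues and 464 in NIH3T3. In small intestine there were 57 with a pseudocount of 0.1, 21 after quantile normalization, 20 in the separate fit and 20 with other window borders. In large intestine there were 17 in the separate fit, 66 with other borders, 501 without the 3 libraries and 475 without the 1 h and 2 h libraries. In spleen there were 546 in the separate fit and 600 with other borders, in thymus 2360 after quantile normalization and 971 with other borders, and in NIH3T3 275 with no filter and 151 after quantile normalization. The organ difference called 301 genes, and 461 with no filter, 618 after quantile normalization, 47 with other borders and 490 without the 1 h and 2 h libraries. Quantile normalization took the share of calls that were higher from 57.9% to 46.2% in spleen, from 67.9% to 47.5% in thymus and from 61.9% to 89.4% in NIH3T3. A pseudocount of 0.1 took it to 67.9% in spleen.

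With 1 library left out, values over 1 to 8 h ranged from 1.26 to 1.35 for Ddit4 in large intestine, 1.07 to 1.27 for Ddit4l in thymus, 0.83 to 0.93 for Sesn2 and -0.095 to 0.093 for Sesn3 in large intestine. Genes called ranged from 126 to 502 in large intestine, the most without the 2 h library, from 210 to 592 in NIH3T3 and from 199 to 553 for the organ difference. Uncalled values near 0 changed sign. Over 6 to 8 h against 1 to 5 h, Sesn3 in small intestine ranged from -0.14 to 0.17 (-0.061 after quantile normalization, -0.19 with other borders). In large intestine, Sesn1 ranged from -0.12 to 0.59, Sesn2 from -0.012 to 0.17, Sesn3 from -0.33 to 0.044 and Ddit4l from -0.13 to 0.19. In NIH3T3, Sesn1 ranged from -0.024 to 0.075 (-0.017 after quantile normalization) and Sesn2 from -0.42 to 0.021. Sesn1 at 9 to 12 h ranged from -0.021 to 0.12, Ddit4 at 24 h was 0.012 after quantile normalization, and the Ddit4l level of spleen minus thymus ranged from -0.13 to 0.065 (0.11 after quantile normalization).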
